A study of Mus musculus with 4 samples.

Results

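A set of 10 genes was followed in single microglia: Gdf15, which encodes a secreted stress cytokine, and 9 genes of the oxidative stress response, Slc7a11, Gclm, Gclc, Mgst1, Txnrd1, Srxn1, Nqo1, Hmox1 and Osgin1. They were picked by symbol from the 32285 genes of the count tables, because higher levels in PRMT1Cx3cr1-KO cells had been seen in these same data. The difference between genotypes is therefore given for them as a description and without a test. The libraries came from brain cells sorted for CD45 and CD11b, 1 library per mouse, from 2 PRMT1FL mice (labelled wild type, with floxed Prmt1) and 2 PRMT1Cx3cr1-KO mice (labelled PRMT1-KO), in which a tamoxifen-inducible recombinase under the control of Cx3cr1, a gene of microglia and other macrophages, removes Prmt1. All 4 mice were fed 0.2% cuprizone (CPZ), a copper chelator that strips myelin, for 5 wk. The study's methods give tamoxifen to both genotypes at 5 to 6 wk of age, whereas the labels give that age for the diet. Whether PRMT1FL mice carried the recombinase was not given in the sources used here, so the loss of Prmt1 and the presence of the Cx3cr1-driven recombinase cannot be told apart. UMIs, tags that count each captured RNA molecule once, were summed over microglial clusters per mouse, and levels are given in CPM, a gene's UMIs scaled to a fixed library total after normalisation by edgeR's trimmed mean of M values. CPM of marker sums, of clusters, of other cell types and of cells grouped by their number of genes were scaled without that normalisation.

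Most of the genes serve antioxidant defence. Slc7a11 is the cystine importer that feeds glutathione synthesis, Gclm and Gclc are the modifier and catalytic subunits of the enzyme that makes the first step of that synthesis, and Mgst1 is a membrane enzyme that couples glutathione to lipid peroxides. Txnrd1 reduces thioredoxin, Srxn1 repairs over-oxidised peroxiredoxins, Nqo1 reduces quinones and Hmox1 breaks down haem. Most are textbook targets of the transcription factor NRF2 (gene Nfe2l2), which binds antioxidant response elements when its inhibitor KEAP1 is oxidised. Gdf15 is induced by several stress pathways, among them the integrated stress response through ATF4 and the p53 pathway, and acts on a receptor of hindbrain neurons. Osgin1 is an oxidative stress-induced growth inhibitor. In demyelinated tissue microglia take up lipid- and iron-rich debris.

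Promoter letters are shown first because several of the genes were detected in the same cells. The RefSeq table (GRCm38.p6) held the window from 250 bases before to 50 bases after a start site for 8 of the 10 genes, with 12 windows in all. Gclc and Hmox1 were not in it. Both strands were searched for TGACNNNGC, the core of the antioxidant response element, for TGAGTCA, an AP-1 site, and for TTGCATCA, an element read by C/EBP and ATF proteins. In the sequences below, from 5′ to 3′, capitals mark these letters, also where they lie on the opposite strand.
Slc7a11 (chr3:50443564-50443863, - strand): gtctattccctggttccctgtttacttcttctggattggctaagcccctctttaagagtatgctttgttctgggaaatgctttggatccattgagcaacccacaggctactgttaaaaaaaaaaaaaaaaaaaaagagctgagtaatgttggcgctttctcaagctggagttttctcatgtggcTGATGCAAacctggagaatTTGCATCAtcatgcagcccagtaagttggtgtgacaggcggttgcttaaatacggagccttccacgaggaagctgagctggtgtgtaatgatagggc
Gclm (chr3:122245307-122245606, + strand): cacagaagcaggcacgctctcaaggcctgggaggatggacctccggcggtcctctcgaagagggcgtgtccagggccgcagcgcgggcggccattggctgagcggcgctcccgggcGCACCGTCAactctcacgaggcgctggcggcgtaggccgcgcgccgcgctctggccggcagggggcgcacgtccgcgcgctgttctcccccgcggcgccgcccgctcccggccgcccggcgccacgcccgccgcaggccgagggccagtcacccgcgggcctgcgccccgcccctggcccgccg
Mgst1 (chr6:138140277-138140576, + strand): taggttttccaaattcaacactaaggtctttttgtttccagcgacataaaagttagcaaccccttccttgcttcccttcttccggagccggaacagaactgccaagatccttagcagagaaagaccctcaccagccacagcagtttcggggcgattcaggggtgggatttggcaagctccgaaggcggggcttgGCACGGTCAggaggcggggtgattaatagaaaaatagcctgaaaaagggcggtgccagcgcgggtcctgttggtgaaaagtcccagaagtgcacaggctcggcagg
Srxn1 (chr2:152105274-152105573, + strand): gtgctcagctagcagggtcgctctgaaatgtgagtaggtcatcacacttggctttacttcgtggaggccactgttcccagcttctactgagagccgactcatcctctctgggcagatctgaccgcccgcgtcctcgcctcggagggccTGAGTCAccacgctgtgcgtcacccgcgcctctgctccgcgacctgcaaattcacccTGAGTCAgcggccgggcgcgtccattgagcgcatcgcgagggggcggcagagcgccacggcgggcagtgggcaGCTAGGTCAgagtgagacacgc
Osgin1 (chr8:119436897-119437196, + strand): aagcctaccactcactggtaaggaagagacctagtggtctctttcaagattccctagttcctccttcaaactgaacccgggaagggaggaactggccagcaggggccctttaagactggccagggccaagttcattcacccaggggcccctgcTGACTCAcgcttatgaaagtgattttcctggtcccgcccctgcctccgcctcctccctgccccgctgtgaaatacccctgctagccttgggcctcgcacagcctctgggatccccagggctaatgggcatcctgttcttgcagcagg
The antioxidant core lay in 4 of the 8 genes, namely Gclm, Mgst1, Txnrd1 and Srxn1, against 14.0% of the 27025 genes of the table. The AP-1 letters lay in 2 of the 8, with a pair of copies in Srxn1 and 1 in Osgin1, against 5.95% of genes. The C/EBP-ATF letters lay in Slc7a11 alone of the 8, in opposite orientations at -66 to -59 and at -47 to -40 from the start, against 1.03% of genes. No window of Gdf15 or Nqo1 held any of the 3, which says only that these letters were not in these 300 bases. A match is a description of sequence and not a bound site.

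The 39506 microglia (10939 and 7789 cells in PRMT1FL mice, 10167 and 10611 in PRMT1Cx3cr1-KO mice) carried 72717695 to 93104863 UMIs per mouse. Between any pair of libraries 31 to 46 cell barcodes were shared, at most 0.555% of the smaller library. Prmt1 itself was at 93.1 and 86.1 CPM in PRMT1FL mice and 69.7 and 67.6 CPM in PRMT1Cx3cr1-KO mice (log2 fold change -0.38, standard error 0.07, adjusted p = 0.0747 by edgeR's quasi-likelihood fit, Benjamini-Hochberg over all genes). It passed the threshold of 0.05 without either PRMT1Cx3cr1-KO mouse (-0.40, adjusted p = 0.00109, and -0.36, adjusted p = 0.00587, edgeR), and Prmt1 transcripts remained in every mouse. All 10 microglial markers were detected, with a summed level of 14372 to 15245 CPM per mouse, and 1 of them was called lower in PRMT1Cx3cr1-KO mice in edgeR. Markers of other cells, and the MHC class II and cycling genes that also lead microglial clusters, differed in level. Erythroid genes summed to 243 and 94.4 CPM in PRMT1FL mice and to 0.0614 and 0.0215 CPM in PRMT1Cx3cr1-KO mice, border-associated macrophage markers to 32.0 and 31.1 against 60.4 and 157 CPM, MHC class II genes to 1026 and 1321 against 394 and 138 CPM, and cycling genes to 114 and 114 against 159 and 232 CPM. Of these, 4 of 5 erythroid genes were called lower and none of the other 3 lists had a call in edgeR. Their part in the results was not tested.

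Gdf15 (chr8:70629393-70632456) was at 10.9 and 16.9 CPM in PRMT1FL mice against 49.5 and 55.4 CPM in PRMT1Cx3cr1-KO mice, 1.92 apart on the log2 scale (standard error 0.19). It rested on 934 and 1200 UMIs against 4061 and 5393. The groups did not overlap. Few cells carried it in either genotype: 2.74 and 3.18% of PRMT1FL microglia and 5.87 and 6.76% of PRMT1Cx3cr1-KO microglia had a Gdf15 UMI, while none of 77 endothelial cell-like cells had one (3 counts of 77 would be 3.90% of cells with a UMI, a limit above the PRMT1FL shares; median 2081 UMIs per cell, against 6066 to 6959.5 over all cells of a library). With every cell thinned to 2000 UMIs the shares were 1.27 and 1.39% against 3.43% (exact 95% binomial interval 3.06 to 3.82) and 4.02% (3.64 to 4.43), an interval that covers counting error alone. The top 1% of cells held 75.5 and 80.2% of the Gdf15 UMIs in the PRMT1FL libraries and 60.8 and 57.3% in the PRMT1Cx3cr1-KO libraries. Single cells reached 78 and 89 UMIs in PRMT1Cx3cr1-KO mice, and 134 and 170 cells had 10 or more, compared with 20 and 38 in PRMT1FL mice. A sum over cells does not part more positive cells from more transcript per cell, and both were higher in PRMT1Cx3cr1-KO mice: a positive cell held 3.11 and 4.84 Gdf15 UMIs on average in PRMT1FL mice against 6.80 and 7.52 in PRMT1Cx3cr1-KO mice, and 1.74 and 2.65 against 3.76 and 3.52 at 2000 UMIs per cell.

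In the glutathione branch, Slc7a11 (chr3:49892526-50443614) was at 11.1 and 8.56 CPM in PRMT1FL and 18.6 and 15.9 CPM in PRMT1Cx3cr1-KO mice (log2 fold change 0.81, standard error 0.14). Gclm (chr3:122245557-122270732) went from 18.3 and 17.9 CPM to 38.3 and 62.7 CPM (1.48, standard error 0.22), and its share of positive microglia at 2000 UMIs from 3.93 and 3.43% to 7.32 and 11.6%. For Gclc (chr9:77754535-77794485), the catalytic partner of Gclm, the values were 26.0 and 24.6 CPM against 28.5 and 31.1 CPM (0.24, standard error 0.07), the smallest difference among the genes whose groups did not overlap. Mgst1 (chr6:138140316-138156755) was nearly absent from PRMT1FL microglia, with 13 and 11 UMIs in all, or 0.152 and 0.155 CPM. PRMT1Cx3cr1-KO microglia held 483 and 1431 Mgst1 UMIs, or 5.89 and 14.7 CPM, which is 6.06 higher on the log2 scale (standard error 0.61). The Mgst1 level of the second PRMT1Cx3cr1-KO mouse exceeded that of the first, as did its Gclm level.

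In the thioredoxin branch, Txnrd1 (chr10:82833951-82897712) was at 26.4 and 22.5 CPM in PRMT1FL and 38.8 and 44.2 CPM in PRMT1Cx3cr1-KO mice (log2 fold change 0.76, standard error 0.10). Srxn1 (chr2:152105516-152111376) was at 3.38 and 3.29 CPM against 7.17 and 10.7 CPM (1.42, standard error 0.20). Osgin1 (chr8:119434124-119446256) was at 1.18 and 1.82 CPM against 10.3 and 8.93 CPM (2.69, standard error 0.20), and the share of positive cells at 2000 UMIs was 0.220 and 0.277% against 2.23 and 2.09%. Nqo1 (chr8:107388225-107403206), although a standard NRF2 target, was at the edge of detection with 4 and 4 UMIs against 17 and 42 (2.63, standard error 0.56). Hmox1 (chr8:75093621-75100589) showed no rise in the sums. It was at 95.1 and 94.1 CPM in PRMT1FL and 94.3 and 97.4 CPM in PRMT1Cx3cr1-KO mice, and the groups overlapped (0.02, standard error 0.06). Of the 10 genes, 9 had both PRMT1Cx3cr1-KO mice above both PRMT1FL mice, as had 26.2% of the 13799 genes tested. This count repeats how the genes were picked, and Nqo1 passed the filter on low counts only through the group in which it was high. Mgst1 rested on 13 and 11 UMIs in PRMT1FL mice. The median log2 fold change of the 10 genes was 1.45, beside -0.00 for all genes.

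**Figure D1:**
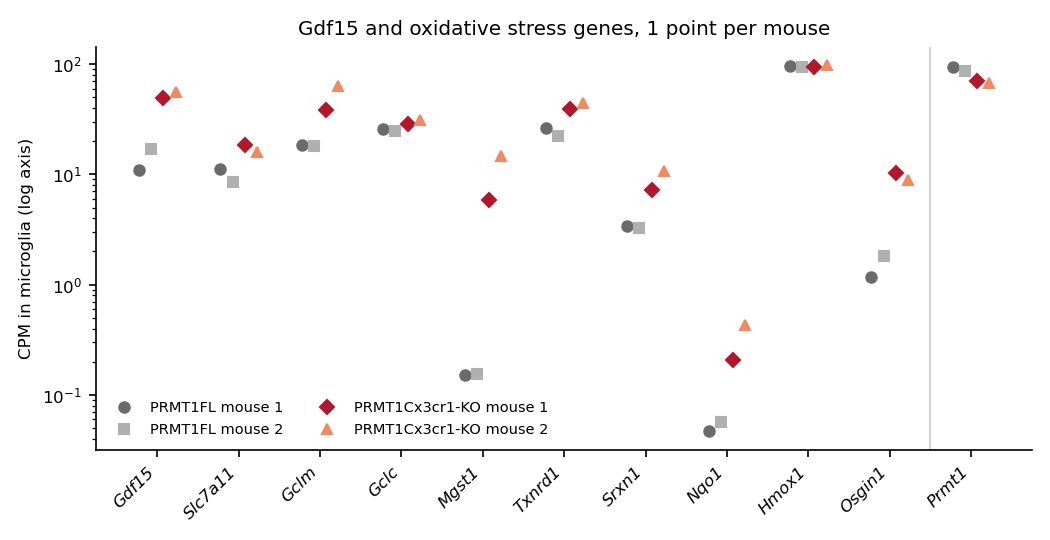
CPM (log axis) of Prmt1 and of the 10 genes in the microglia of each mouse, 1 point per mouse, grey for PRMT1FL and red for PRMT1Cx3cr1-KO. For 9 genes both red points lie above both grey points, Hmox1 sits between 94.1 and 97.4 CPM in all mice, and Mgst1 spans the widest range, from 0.152 to 14.7 CPM.

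The genes were next examined cell by cell, with 2000 UMIs kept in each of 36010 microglia and 3496 shallower cells left out. No UMI of any of the 10 genes was found in 71.9 and 73.0% of PRMT1FL microglia and 64.9 and 60.7% of PRMT1Cx3cr1-KO microglia. Cells with 3 or more of the genes numbered 26 of 9993 and 15 of 7209 in PRMT1FL mice, or 0.260 and 0.208%. In PRMT1Cx3cr1-KO mice they numbered 210 of 9129 and 352 of 9679, or 2.30 and 3.64%. At least 4 genes were found in 1 and 0 cells of PRMT1FL mice and in 69 and 136 cells of PRMT1Cx3cr1-KO mice, and the fullest cells, all PRMT1Cx3cr1-KO, held 7. At full depth the shares with 3 or more, averaged over the mice of a genotype, were 9.05% and 17.9%. Cells with 3 or more genes were not deeper than the rest in PRMT1Cx3cr1-KO mice (median 4833 and 5922 UMIs before thinning, against 6971 and 7629 in all thinned cells), and without cells marked as doublets the shares averaged over the mice of a genotype were 0.232 and 2.98%, beside 0.234 and 2.97% with them. Of the PRMT1Cx3cr1-KO cells with 3 or more genes 55.2 and 69.9% carried Gclm, 60.5 and 58.0% Txnrd1, 51.9 and 52.3% Hmox1, 43.3 and 37.8% Gdf15, 32.9 and 31.2% Slc7a11 and 31.9 and 22.7% Osgin1. Their Prmt1 level was 54.8 and 56.8 CPM, on 23 and 40 UMIs, beside 69.8 and 69.9 CPM in cells with none of the 10 genes.

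**Figure D2:**
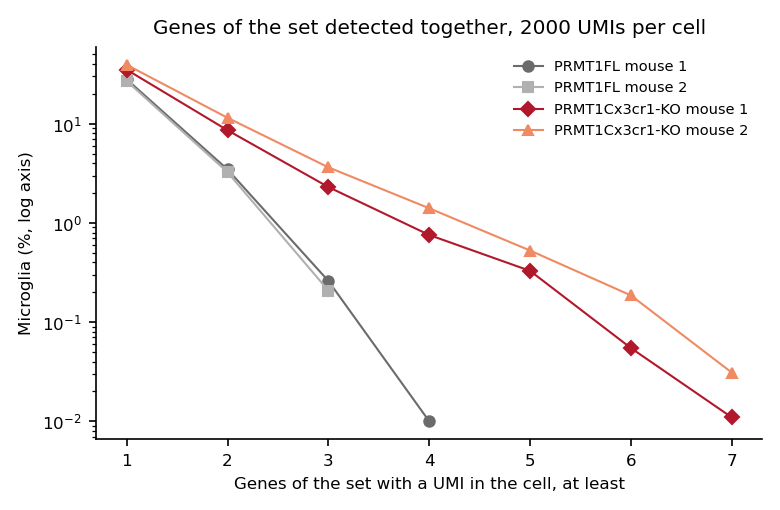
Share of microglia (%, log axis) that had a UMI of at least the number of genes on the x axis, with 2000 UMIs per cell, 1 line per mouse. The PRMT1FL lines end at 3 and 4 genes and the PRMT1Cx3cr1-KO lines at 7, and at 3 genes the values are 0.260 and 0.208% against 2.30 and 3.64%.

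Pairs of genes were compared with the number of cells expected from the product of their shares. Of the 45 pairs, 19 had at least 3 expected cells in each genotype. Their median ratio of observed to expected cells was 1.21 and 0.973 in PRMT1FL mice against 1.79 and 1.95 in PRMT1Cx3cr1-KO mice. Pooled by genotype, 10 of the 19 ratios were over 1 in PRMT1FL and 19 in PRMT1Cx3cr1-KO mice. A second random thinning gave 1.36 and 1.97 for the genotypes pooled, in place of 1.11 and 1.83, and the PRMT1FL pairs rest on few cells. Gdf15 met Gclm in 7 and 1 cells of PRMT1FL mice (ratio 1.40 and 0.292) and in 64 and 100 cells of PRMT1Cx3cr1-KO mice (2.79 and 2.21). It met Slc7a11 in 4 and 2 cells of PRMT1FL mice, where fewer than 3 were expected, and in 36 and 61 cells of PRMT1Cx3cr1-KO mice (4.05 and 6.46). Gclm and Txnrd1 stood at 0.994 and 0.973 against 2.20 and 2.29, and Gclm and Srxn1 at 1.67 and 1.33 against 4.02 and 3.96. Txnrd1 and Srxn1 were found together above expectation in both genotypes, at 2.64 and 3.03 against 3.47 and 3.18. Slc7a11 and Txnrd1 were as well, at 2.03 and 2.90 against 2.79 and 3.25. Pairs with Hmox1 varied. Gclc and Hmox1 were at 0.866 and 0.972 against 1.08 and 1.05, Srxn1 and Hmox1 at 0.443 and 0.926 against 1.63 and 1.95, and Gdf15 and Hmox1, the single pair of the 19 with a lower pooled ratio in PRMT1Cx3cr1-KO mice, at 1.60 and 1.90 against 1.39 and 1.36. These ratios are descriptions of cells of 4 libraries, which share depth and cluster makeup, and carry no test.

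Cells were also compared inside each mouse, a comparison by which the genes had not been picked. The test is still not independent of that choice. Gdf15 and the other genes were all picked for higher levels in PRMT1Cx3cr1-KO cells, and most cells with a Gdf15 UMI came from those mice. Splitting their cells by Gdf15 can therefore follow the same rise. Microglia with a Gdf15 UMI after thinning (127 and 100 in PRMT1FL, 313 and 389 in PRMT1Cx3cr1-KO mice) were summed and set against microglia without one, with the mouse as a block. Over the 4 mice together, 8 of the 9 other genes were higher in Gdf15-positive microglia by edgeR's quasi-likelihood test, where 4.20% of the 11509 genes tested were called higher and 10.6% in either direction. Slc7a11 was 5.97-fold higher (log2 2.58, standard error 0.18, adjusted p = 5.0e-41), Osgin1 6.80-fold (2.76, standard error 0.22, adjusted p = 3.0e-33) and Srxn1 5.03-fold (2.33, standard error 0.25, adjusted p = 8.3e-19). Mgst1 was 4.41-fold, Gclm 2.79-fold, Txnrd1 2.77-fold, Gclc 1.62-fold and Hmox1 1.55-fold higher (adjusted p from 1.6e-25 to 0.00224 in edgeR). The call of Mgst1 describes PRMT1Cx3cr1-KO mice alone, through which it passed the filter on low counts. In PRMT1FL mice it had 2 and 4 UMIs in negative cells and none in positive cells. Positive PRMT1FL cells held 1 and 0 UMIs of Osgin1 and 0 and 1 of Srxn1, so these calls too rest mostly on PRMT1Cx3cr1-KO mice. Nqo1, with 4 UMIs in positive cells of all mice, had adjusted p = 0.188 in edgeR. The fit shared 1 estimate of the spread over all genes, which makes its p-values small, and with limma's voom, chosen after seeing the data, Slc7a11 had adjusted p = 3.7e-04 and Gclc lost its call (0.0520), as it did in edgeR without either PRMT1Cx3cr1-KO mouse (adjusted p = 0.209 and 0.232). With DESeq2 5 of the 9 were called, Gclm not among them (adjusted p = 0.541).

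The values of each mouse were as follows. In PRMT1Cx3cr1-KO mice each of the 9 genes was higher in Gdf15-positive cells in both animals. Slc7a11 was at 97.2 CPM with and 17.3 CPM without Gdf15 in the first and at 120 and 13.9 CPM in the second, Gclm at 156 and 42.5 and at 215 and 73.0 CPM, Osgin1 at 62.3 and 12.2 and at 96.8 and 10.3 CPM. In PRMT1FL mice the values rested on few UMIs. Slc7a11 was at 22.7 CPM with and 8.20 CPM without Gdf15 in the first (6 UMIs in positive cells) and at 9.42 and 6.56 CPM in the second (2 UMIs). Gclm was at 26.4 and 21.2 CPM in the first and, lower in positive cells, at 4.71 and 19.5 CPM in the second (7 UMIs and 1 UMI), Mgst1 had no UMI in positive cells of either, and Srxn1 had 0 and 1. Osgin1 was at 3.78 CPM with and 1.14 CPM without Gdf15 in the first (1 UMI in positive cells) and at 0 and 1.58 CPM in the second. In all, 4 of the 9 were higher in positive cells in all 4 mice, namely Slc7a11, Gclc, Txnrd1 and Hmox1. Gclc was barely so in the first PRMT1FL mouse, at 30.2 CPM with and 29.6 CPM without Gdf15. The share of all tested genes with this pattern is not given, so the count is only a description. The difference between the genotypes was itself tested as an interaction: Gclm passed (log2 1.97, standard error 0.45, adjusted p = 0.0383 by edgeR), where 0.417% of all genes were called in either direction and 0.304% upward, while Slc7a11 (1.66, adjusted p = 0.178), Txnrd1 (1.02, adjusted p = 0.237), Srxn1 (3.22, adjusted p = 0.222) and the other 5 did not in edgeR. The call of Gclm was lost without the second PRMT1FL mouse (adjusted p = 0.434), with voom (0.305) and at 1000 UMIs per cell (0.297, edgeR), whereas Slc7a11 passed with no thinning (adjusted p = 0.00208, edgeR).

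**Figure D3:**
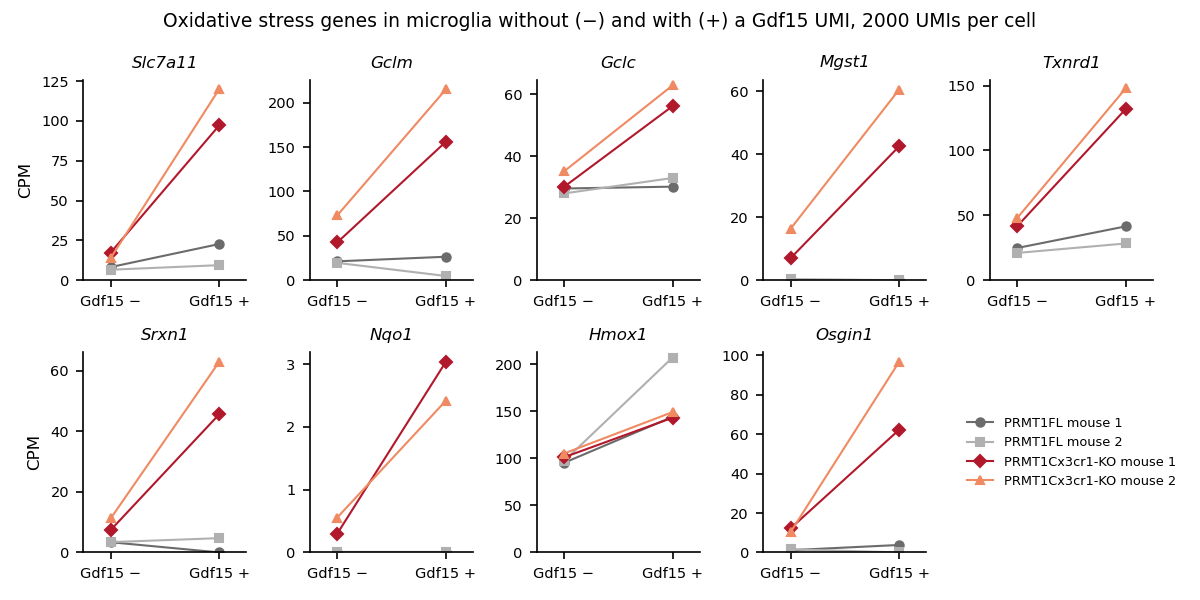
CPM of the 9 other genes in microglia without (left) and with (right) a Gdf15 UMI, with 2000 UMIs per cell, 1 line per mouse and each panel on its own axis from 0. The red PRMT1Cx3cr1-KO lines rise in all panels, for Slc7a11 from 17.3 to 97.2 and from 13.9 to 120 CPM, while the grey PRMT1FL lines for Slc7a11 go from 8.20 to 22.7 and from 6.56 to 9.42 CPM, and Hmox1 rises in all 4 mice.

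Other genes were named by rule from the same comparison, as those with the largest ratio among genes called and higher in all 4 mice. Slc7a11 was the second of the 10, and the first was Gm13889 (log2 2.85, standard error 0.23). Phlda3 (2.34), a p53 target that restrains AKT, Plk2 (1.84), a stress-induced kinase, and Hspb1 (2.11), a small heat-shock protein, stood among them. Mmp12 (2.05) encodes macrophage elastase and Tnf (1.91) the inflammatory cytokine; Tnf was at 657 and 735 CPM in Gdf15-positive cells of PRMT1FL mice and at 1751 and 1466 CPM in those of PRMT1Cx3cr1-KO mice, against 208 and 237 and 479 and 288 CPM in negative cells. Gm49774 (2.22), Pira2 (2.17) and Foxp4 (1.88) completed the 10. Each of these was at 7.55 and 4.71 CPM in Gdf15-positive cells of the PRMT1FL mice, which is very few UMIs. In the second PRMT1FL mouse 4.71 CPM was the level of 1 UMI, and Phlda3 stood at that level there too. At the other end Cxcl13, Cul7 and Plxna2 had no UMI in Gdf15-positive cells of any mouse, and Iigp1, an interferon-induced GTPase, and Gm9828 had none in 3 of the 4 mice. Iigp1 was at 10.2, 8.30, 9.76 and 2.45 CPM in the negative cells of the 4 mice. Cul7 and Plxna2 were at only 2.26 to 4.60 CPM in negative cells. In the second PRMT1FL mouse both lay under the 4.71 CPM of 1 UMI, so a lower value there could only be 0. Nfe2l2, the gene of NRF2, was higher in positive cells (log2 0.57, standard error 0.09, adjusted p = 4.6e-08 in edgeR), at 370 and 410 CPM against 329 and 309 in PRMT1FL mice and at 574 and 490 CPM against 350 and 282 in PRMT1Cx3cr1-KO mice, although its sums gave a log2 difference of 0.00 between genotypes (standard error 0.10). Prmt1 was at 83.1 and 84.8 CPM with and 95.2 and 89.2 CPM without Gdf15 in PRMT1FL mice, and at 56.2 and 41.1 CPM with and 74.0 and 69.8 CPM without in PRMT1Cx3cr1-KO mice (log2 -0.42, standard error 0.15, adjusted p = 0.0558 in edgeR).

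Which cells carried the genes was read from Leiden clusters built without the 10 genes, without the other stress genes listed here and without 749 genes called between genotypes when every cell was summed. The 8 microglial clusters are called by their leading genes. In the cluster led by Il7r, Gm31243 and Bank1 (7789 cells) Gdf15 was at 9.90 and 18.4 CPM in PRMT1FL and at 179 and 189 CPM in PRMT1Cx3cr1-KO mice (log2 difference of the means 3.70). Where 1 level or share is given for any of these 8 clusters, it is averaged over the mice of a genotype. That cluster held 9.57% of microglial Gdf15 UMIs in PRMT1FL mice against 37.6% in PRMT1Cx3cr1-KO mice, and the latter was 49.5% with another random seed. It was the shallowest of the 8, with a median of 3461 UMIs per cell over all mice. Thinning to 2000 UMIs kept 1637 of its 1919 and 1381 of its 1605 PRMT1FL cells. Of its PRMT1Cx3cr1-KO cells it kept 1537 of 2072 and 1658 of 2193. In the cluster led by Mmp12, Postn and Itgax Gdf15 was at 11.9 and 18.5 CPM in PRMT1FL mice and at 82.2 and 189 CPM in PRMT1Cx3cr1-KO mice, 8.92-fold between the means, with the pair of PRMT1Cx3cr1-KO mice far apart. With another random seed no cluster was led by Mmp12, and the largest, led by Gpnmb, Ahnak2 and Gm37168, had 15126 cells. The cluster led by Il12b, Dusp2 and Cxcl1 had the most Gdf15 UMIs in PRMT1FL mice, 36.9%, and there the level moved 1.93-fold, from 29.1 to 56.1 CPM. In the cycling cluster led by Hmmr, Cenpf and Mki67 the mice overlapped (19.8 and 21.7 CPM). Slc7a11 went from 3.86 to 46.7 CPM in the Il7r cluster, while in the Il12b cluster, which held 56.5% of its PRMT1FL UMIs, the mice overlapped (log2 difference 0.19). Osgin1 had 52.2% of its PRMT1Cx3cr1-KO UMIs in the Il7r cluster, where it went from 2.50 to 47.0 CPM.

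Gclm, Srxn1, Mgst1 and Osgin1 were higher over most clusters, and so were Gdf15, Gclc and Txnrd1. Outside the Il7r cluster Osgin1 went from 1.48 to 9.63 CPM in the Mmp12 cluster and from 2.03 to 7.27 CPM in the Il12b cluster. For Gclm both PRMT1Cx3cr1-KO mice lay above both PRMT1FL mice in all 8, from 17.9 to 66.0 CPM in the cluster led by Pbk, Nusap1 and Rrm2, where Gdf15 reached 4.18 CPM, and from 16.4 to 32.0 CPM in the largest, led by Gpnmb, Lgi2 and Igfbp5. Srxn1 showed the same in 7 of the 8, from 3.54 to 13.2 CPM in the Pbk cluster. In the cluster led by Gdf3, Cd38 and Clec12a the 26 and 7 PRMT1FL cells held no UMI of Gclm, Srxn1 or Osgin1, so that cluster adds little. These counts repeat how the genes were picked, and the share over all genes was not computed per cluster. Mgst1 was highest in the Mmp12 cluster, which another seed did not give, with 5 UMIs in PRMT1FL and 497 in PRMT1Cx3cr1-KO mice. Hmox1, level in the sums, stood at 79.7 CPM in the Il7r cluster of PRMT1FL mice and 129 CPM in that of PRMT1Cx3cr1-KO mice without overlap, and overlapped in 6 of the 8 clusters. With the cluster makeup of PRMT1FL mice applied to every mouse, the log2 difference was 2.20 for Gdf15, 0.96 for Slc7a11, 1.59 for Gclm and 0.09 for Hmox1, beside 1.99, 0.89, 1.56 and 0.10 in the same sums without that weighting. The cluster led by Gdf3, Cd38 and Clec12a (574 cells) drew 79.8% of its cells from the second PRMT1Cx3cr1-KO mouse, and without it the median log2 fold change of the 10 genes was 1.46.

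**Figure D4:**
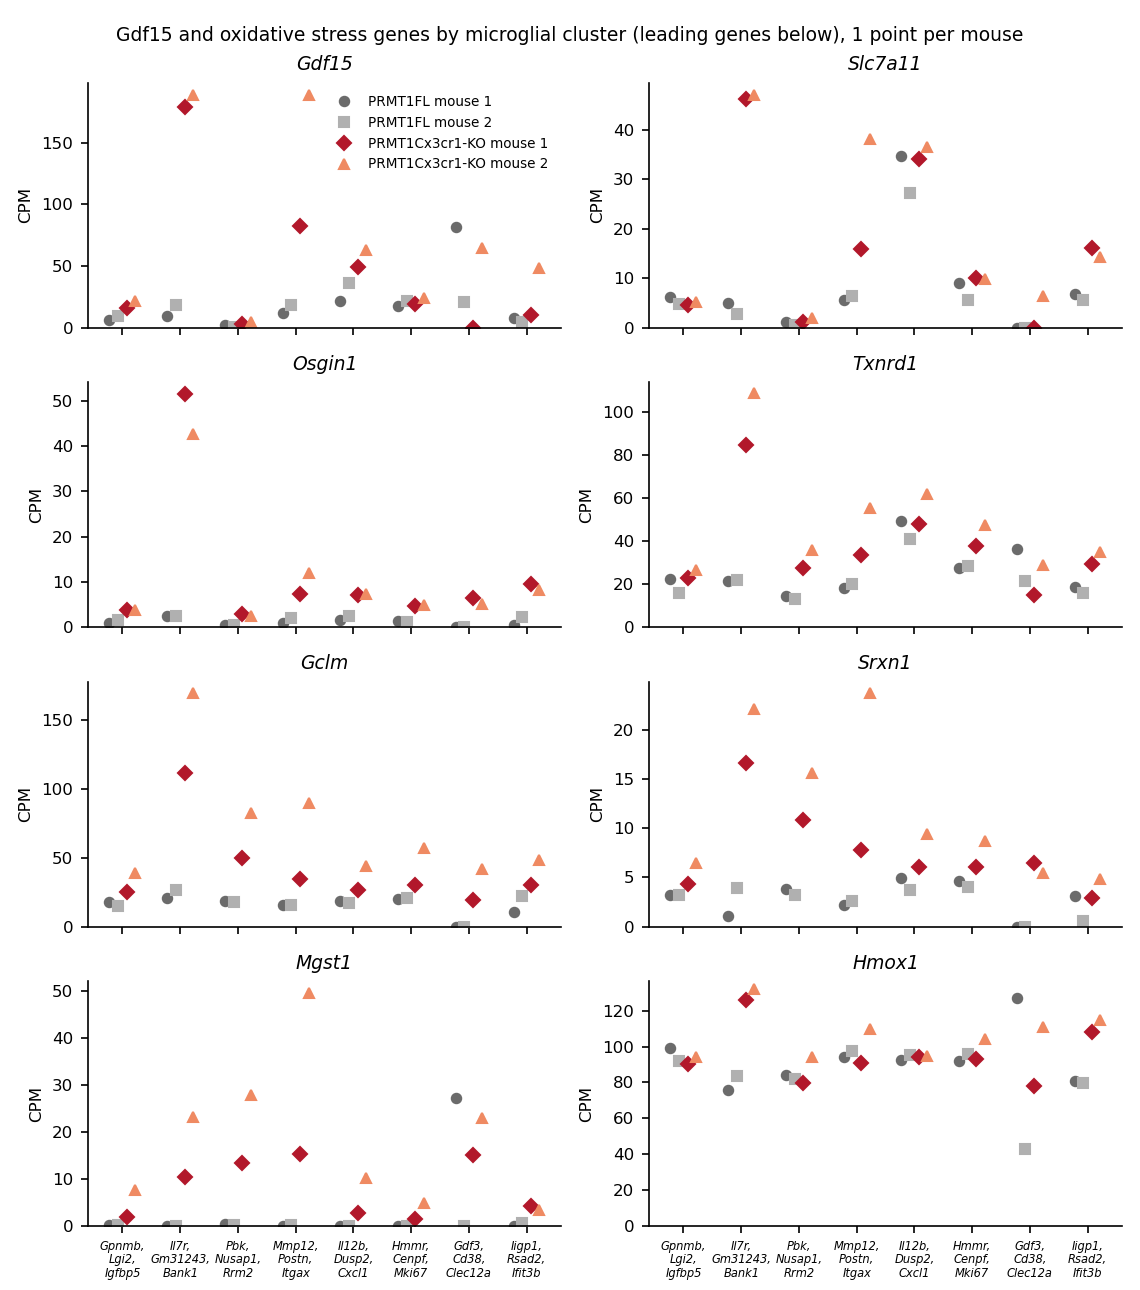
CPM of 8 of the genes in each microglial cluster, named by leading genes on the x axis, 1 point per mouse and each panel on its own axis from 0. In the Il7r cluster both PRMT1Cx3cr1-KO mice lie far above both PRMT1FL mice for Gdf15, Slc7a11, Osgin1 and Txnrd1, and in the Gdf3 cluster the PRMT1FL points rest on 10 Gdf15 UMIs in all.

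Raising the clustering resolution by 0.2 parted these cells further. A cluster of 997 cells, led by Osgin1, Gdf15, Gbp5, Tnfaip2 and Tnf although the first pair of genes took no part in the clustering, held 26 and 24 PRMT1FL cells and 499 and 448 PRMT1Cx3cr1-KO cells. It made up 0.238 and 0.308% of microglia in PRMT1FL mice, as opposed to 4.91 and 4.21% in PRMT1Cx3cr1-KO mice. It held 27.4% of the Gdf15, 23.7% of the Slc7a11 and 30.3% of the Osgin1 UMIs of PRMT1Cx3cr1-KO microglia. These shares of UMIs and those of the next cluster are of both mice pooled. Another of 316 cells, led by Mmp12, Mgst1 and Gdf15, held 12 and 13 PRMT1FL cells and 92 and 199 PRMT1Cx3cr1-KO cells, and with them 15.9% of the Gdf15 and 20.1% of the Mgst1 UMIs of PRMT1Cx3cr1-KO microglia. In the PRMT1Cx3cr1-KO mice the first was at 383 and 392 CPM of Gdf15 and 23.1 and 33.7 CPM of Mgst1. The second was at 985 and 592 CPM of Gdf15 and 201 and 171 CPM of Mgst1. Cells with 3 or more of the genes made up 18.0 and 17.7% of the first and 29.2 and 31.2% of the second in PRMT1Cx3cr1-KO mice, at 2000 UMIs per cell. Both were mostly of 1 genotype, and their shares describe these 4 libraries without a test.

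**Figure D5:**
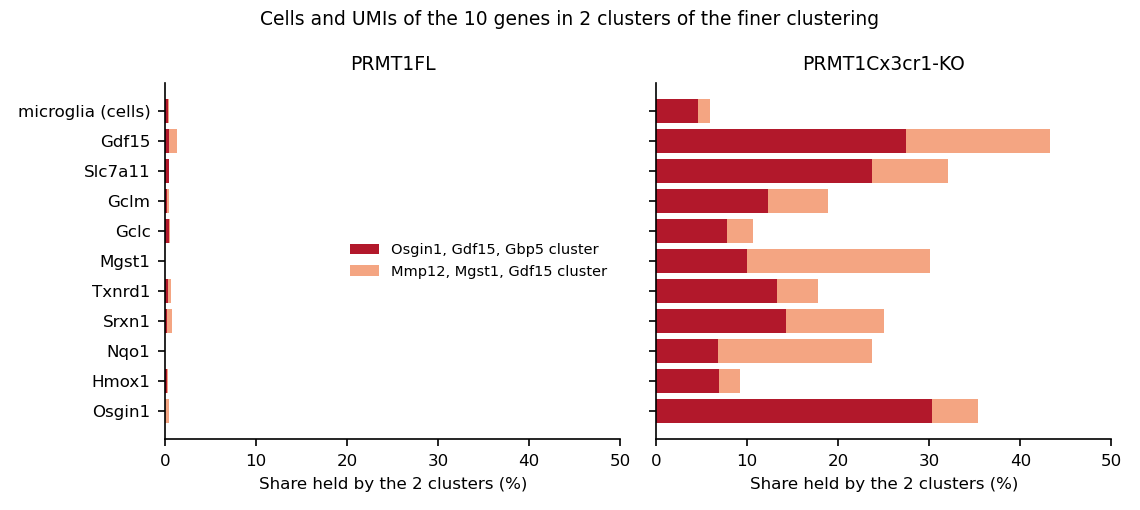
Share (%) of microglia and of each gene's microglial UMIs held by the clusters led by Osgin1, Gdf15 and Gbp5 (dark) and by Mmp12, Mgst1 and Gdf15 (light) at the raised resolution, with the mice of a genotype pooled. In PRMT1Cx3cr1-KO mice 4.55 and 1.40% of the microglia held 27.4 and 15.9% of the Gdf15 UMIs, and in PRMT1FL mice 0.375 and 0.890%.

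Inside the Il7r cluster the comparison of Gdf15-positive with negative cells was repeated. Positive cells made up 18 of 1637 and 18 of 1381 cells of the cluster in PRMT1FL mice, and 132 of 1537 and 149 of 1658 in PRMT1Cx3cr1-KO mice. In PRMT1Cx3cr1-KO mice Slc7a11 was at 125 and 161 CPM in positive cells and 31.7 and 36.8 CPM in negative cells of the cluster, and outside it at 85.6 and 106 against 13.4 and 8.93 CPM. The positive PRMT1FL cells of this cluster held no UMI of Slc7a11, Srxn1, Osgin1 or Mgst1. Within the cluster 6 of the 9 genes were called higher by edgeR, where 0.952% of the 9561 genes tested were called higher and 1.10% (105 genes) in either direction. The calls of Slc7a11, Srxn1 and Osgin1 describe PRMT1Cx3cr1-KO mice alone, through which they passed the filter on low counts. In negative PRMT1FL cells of the cluster these genes had 10 and 5, 5 and 3, and 8 and 4 UMIs. Gclm, also called, had 1 and 0 UMIs in positive PRMT1FL cells of the cluster. Hmox1, also called, differed most in PRMT1FL mice. There it was at 389 and 500 CPM in positive cells (14 and 18 UMIs) against 69.2 and 78.9 CPM in negative cells. In PRMT1Cx3cr1-KO mice it was at 129 and 185 CPM against 125 and 130 CPM. Gclc (log2 0.16, adjusted p = 0.954) and Mgst1 (1.18, adjusted p = 0.352) were not called in edgeR. Nqo1 was too low to be tested there.

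Outside microglia, 1363 cells fell into clusters led by markers of other types or low in microglial markers. Their levels are given with the cells of all mice pooled, unless mice are named. Astrocyte-like cells, of which 301 came from PRMT1FL and 65 from PRMT1Cx3cr1-KO mice, were at 358 CPM of Slc7a11, 141 CPM of Mgst1 and 15.4 CPM of Nqo1, and held 21.7% of all Nqo1 UMIs. Their cluster was led by Vtn, Gpr37l1 and Sparcl1. At the raised resolution astrocyte-like cells numbered 300, and a separate cluster of 66 cells was led by Vtn, Rgs5 and Myl9. These levels may thus not be of astrocyte-like cells alone. Neutrophil-like cells (74 and 1) were at 131 CPM of Slc7a11 and 285 CPM of Mgst1. Oligodendrocyte-like cells (46 and 8) were at 103 CPM of Gdf15, with a UMI in 29.6%. Border-associated macrophage-like cells (220 and 259) were at 49.6 CPM of Gdf15 and 15.9 CPM of Mgst1. In their cluster led by Mrc1, F13a1 and Cd163 Gdf15 was at 5.92 and 15.2 CPM in PRMT1FL and 40.7 and 74.6 CPM in PRMT1Cx3cr1-KO mice. Mgst1 was at 8.87 and 2.85 against 16.3 and 20.1 CPM there. In the cluster led by Lyve1, F13a1 and Clec10a the first PRMT1FL mouse alone had Gdf15 UMIs (51). The cluster led by Ccl8, Cd209f and Cbr2 had none in any mouse. Astrocyte-, neutrophil- and oligodendrocyte-like cells thus came mostly from PRMT1FL mice, and over all cells, not microglia alone, the log2 difference between genotypes was 0.48 for Slc7a11 and 2.11 for Mgst1.

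Of the other stress genes listed with the 10, 3 of 120 tested were higher in PRMT1Cx3cr1-KO microglia in edgeR and none lower, beside 0.551% and 0.217% of all genes (0.768% in either direction), and the median log2 fold change was 0.05. At an unadjusted p of 0.05 these numbers were 29 and 7, beside 10.2% and 9.71% of all genes in edgeR. DESeq2 called 17 higher and none lower, beside 2.99% and 2.05% of all genes. Trim16, a ubiquitin ligase, went from 0.129 and 0.141 CPM to 1.30 and 1.53 CPM (log2 3.39, standard error 0.26, adjusted p = 0.0157 in edgeR). Blvrb, a biliverdin and flavin reductase, went from 55.5 and 57.8 to 108 and 142 CPM (1.15, standard error 0.13, adjusted p = 0.0316 in edgeR), and Gsr, which reduces glutathione, from 14.6 and 13.6 to 22.6 and 27.9 CPM (0.84, standard error 0.11, adjusted p = 0.0445 in edgeR). All 3 calls were lost without either PRMT1FL mouse (adjusted p from 0.260 to 0.478 in edgeR), and that of Gsr with voom (0.0649). No gene of the other lists passed. The lowest p-values gave Taldo1 0.47 and Pgd 0.31 among NADPH suppliers, Txn1 0.49 and Prdx6 0.19 in the thioredoxin list, Cat 0.43 and Cybb -0.18 for superoxide and peroxide, Slc40a1 0.37 and Fth1 0.16 for iron, and Sqstm1 0.42 and Nfe2l1 0.14 among NRF2 regulators, as log2 differences. Cebpg was at -0.19 and Ppp1r15a at 0.45 in the integrated stress response, Phlda3 at 1.13 and Ccng1 at 0.24 among p53 targets, and Dusp1 at 0.32 and Hspa1b at -0.70 in the dissociation response. The receptor genes of GDF15, Gfral and Ret, had too few UMIs to be tested.

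The same lists were read inside mice. In Gdf15-positive microglia 44 of 116 genes of the other lists were called higher and 8 lower by edgeR, beside 4.20% of all 11509 genes higher and 6.39% lower, with a median log2 ratio of 0.29 against -0.00 for all genes. The integrated stress response had 10 of 18 higher and 1 lower (median 0.60), p53 targets 6 of 13 and none lower (0.63), iron genes 5 of 6 and none lower (0.47), NRF2 regulators 4 of 11 and none lower (0.34), and the dissociation response, a set of early genes that tissue handling can induce, 11 of 16 and none lower (0.52). Glutathione genes had 4 of 15 higher and 1 lower (0.04), and the thioredoxin list 1 of 10 higher and 3 lower (0.01). NADPH suppliers had 1 of 6 higher and 1 lower (0.22). Quinone, carbonyl and haem enzymes had 1 of 12 higher and 1 lower (-0.14), and superoxide and peroxide genes 1 of 9 and 1 lower (-0.06). In the sums between genotypes the median of the dissociation list was -0.03 and that of the integrated stress response -0.14. The part of tissue handling in the Gdf15-positive cells was not tested.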

How the data were processed

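Per the labels and the study's methods, the authors aligned reads of droplet libraries to mm10 with Cell Ranger 3.1.0 (Seurat 3.2.0 and Scanpy 1.5.2 are also named in the submitters' processing notes) and deposited raw UMI counts per gene and barcode. Kept cells had 200 to 6000 detected genes and a mitochondrial share of up to 10% (40869 cells, 6066 to 6959.5 median UMIs per library). Counts scaled to 10000 were log transformed, and 2000 variable genes and 20 principal components were clustered with Leiden (leidenalg 0.10.2, scanpy 1.11.5). A cluster counted as microglial with at least 10 cells, at least 50% of the overall microglial marker CPM and fewer than 3 markers of another type among its 10 leading genes, a rule set after the clusters were seen. Doublets (6.54 to 9.15% of cells) were kept. UMIs summed per mouse were tested with edgeR 4.0.16 (filterByExpr, TMM, quasi-likelihood), with DESeq2 1.42.0 and limma 3.58.1 (voom) as alternatives, all in R 4.3.3, and the scripts were tested on simulated data. Nothing says whether mice were littermates. The p-values between genotypes measure the spread between these 2 mice per genotype, with an estimate that also draws mostly on all genes together. Those of the Gdf15-positive and interaction tests measure the spread of differences inside the 4 mice, drawn from all genes together to a still larger part. Gene positions are from GENCODE on GRCm38. Named genes were the 10, Prmt1, listed genes called between genotypes (else the 2 of smallest p per list), and, among genes called in Gdf15-positive cells and alike in all 4 mice, the 10 highest and 5 lowest. The genes and lists were chosen with earlier results of these data known. A listed gene that also passed the test of the difference between genotypes is not reported here.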

Additional observations from a re-analysis of the deposited data

Results flagged for a closer look

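In these genes the difference between Gdf15-positive and Gdf15-negative microglia was itself different between genotypes, by the interaction test of edgeR's quasi-likelihood fit adjusted over all genes. They are named here for that reason, after their values were seen, and a positive log2 value means a larger excess in PRMT1Cx3cr1-KO mice. Of the 9 genes set beside Gdf15 Gclm was the one (1.97, adjusted p = 0.0383). Blvrb stood at 1.69, Taldo1 at 1.06 and Sqstm1, an autophagy receptor that sequesters KEAP1, at 0.88. The iron genes Slc11a1 and Fth1 were at 1.02 and 0.46. The early genes Jun, Jund, Fos and Ier3 were at 0.62, 0.61, 0.53 and 0.61, and Hspa1b at -1.25. Mmp12 was at 1.68. Their adjusted p-values in edgeR ran from 3.2e-04 to 0.0383, and limma's voom called 3 genes in all.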

How the results depend on the processing

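The median log2 fold change of the 10 genes stayed at 1.09 to 1.74 under all 13 alternatives. The number of genes called between genotypes, 106, was 1713 with no filter on low counts, 696 with DESeq2, 749 over all cells, 191 with the replicate block and 41 with voom, and 4 to 2805 with 1 mouse left out (4 and 6 without the first and second PRMT1FL mouse, 2805 and 1112 without the first and second PRMT1Cx3cr1-KO mouse). The 3 other stress genes became 30, 17, 6 and 6 under the first 4 of these and 0 to 53 with 1 mouse left out (0 without either PRMT1FL mouse, 53 and 30 without the first and second PRMT1Cx3cr1-KO mouse). Over all genes same-numbered mice did not deviate together (correlation -0.02, with 2 mice per genotype the same for both numbers by construction). That value cannot show whether such mice shared a batch or litter. The replicate numbers are not stated to pair mice, and pairing was not tested. Prmt1 passed the threshold with no filter (-0.38), with DESeq2 (-0.38) and over all cells (-0.35), and ran from -0.44 to -0.33 with 1 mouse left out. Genes called in Gdf15-positive cells, 1218, were 790 at 1000 UMIs, 637 unthinned, 640 with DESeq2, 105 inside the Il7r cluster and 589 to 1320 with 1 mouse left out (601 and 589 without the first and second PRMT1Cx3cr1-KO mouse). The interaction, 48 genes, became 758 unthinned, 85 over all cells, 85 without doublets, 110 unfiltered, 3 with voom, 121 without the Gdf3 cluster and 17 to 96 with 1 mouse left out (17 without the second PRMT1FL mouse, 96 without the first PRMT1Cx3cr1-KO mouse). It changed sign for Hmox1 at 1000 UMIs (0.81) and unthinned (0.34), and with voom for Mgst1 (-1.15) and Nqo1 (-3.12). The co-detection median was 1.68 at 1000 UMIs in PRMT1Cx3cr1-KO mice and 1.60 unthinned in PRMT1FL mice, and 1.36 and 1.97 for PRMT1FL and PRMT1Cx3cr1-KO mice with another thinning. The cluster with most Gdf15 UMIs held 49.5% in PRMT1Cx3cr1-KO mice with another seed, and at the raised resolution the cluster with most over the 4 mice together was that of Il12b, with 48.5 and 19.6% on average in PRMT1FL and PRMT1Cx3cr1-KO mice, although in the latter the Osgin1 and Gdf15 cluster held more (28.5 and 26.5%). The cause of these changes was not tested. The voom fits, the second thinning and leaving out the Gdf3 cluster were added after seeing the data. With 2 mice per genotype an estimate left with 1 mouse assumes that it varies like the others.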
